A study of Arabidopsis thaliana with 40 samples.

Results

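The plastid genome of Arabidopsis thaliana carries part of the machinery that expresses it, and 26 of the 22746 probe sets tested on the array read genes of that machinery and a few of its plastid-encoded companions. They were taken from 69 probe sets that each match a single plastid-encoded gene. The choice used symbols that start with rps, rpl, rpo or ycf, plus accD, clpP, matK, cemA and ccsA, and left mitochondrial rps and rpl genes out. The rule uses names and no measured value, but it was set with earlier results of these data known. The members are 4 rpo genes, accD and clpP, 8 rps genes, 7 rpl genes and 5 others (ycf3, ycf4, matK, cemA and ccsA). A further 7 probe sets, of 6 inverted-repeat genes that the platform annotation lists with 2 entries (rps12, rpl2, rpl23, ycf2, rps7 and ycf1), match no single gene and were left out.

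Transcript levels were measured in leaves of Columbia wild type, of aox1a, of rpoTmp and of the aox1a:rpoTmp double mutant on 40 Affymetrix arrays. AOX1A is a mitochondrial alternative oxidase, and RPOTMP is a nuclear-encoded RNA polymerase of the phage type that works in both plastids and mitochondria. Untreated plants were kept at 100 µE light with water. Stressed plants were held for 4 d at about 350 µE without water, which the labels call moderate light and drought (MLD), after soil drying that began 4 d earlier. The arrays fall into 3 sets with separate wild types: the aox1a and rpoTmp sets hold 14 arrays each and the double set 12. There are 3 arrays per treatment for wild types and the double mutant. The single mutants are represented by 2 lines, and every line by 2 arrays in each treatment. The labels do not say how the mutant alleles were made, give no line for the double mutant and do not say whether arrays came from separate plants, so p-values measure the spread between arrays, which may be technical. Plant age is labelled in conflicting ways. In the double set, both genotypes are described as 5 weeks old when untreated and 4 weeks old under MLD in the characteristics field, as 4 weeks old in the source names, and the double mutant as 6 to 7 weeks old in the protocol. Wild type of the double set is 4 weeks old in the protocol. For rpoTmp these 3 sources give 5, 4 and 5 weeks, against 4 weeks for its wild type. In the aox1a set all 3 sources give 4 weeks for mutant and wild type.

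Plastid genes are transcribed by polymerases of distinct origin. The plastid-encoded polymerase is a bacterial-type enzyme whose core subunits come from rpoA, rpoB, rpoC1 and rpoC2, and it reads mainly photosynthesis genes. Nuclear-encoded phage-type polymerases, RPOTP and RPOTMP, read the rpoB-rpoC1-rpoC2 operon and accD, and share clpP and many ribosomal protein genes with the plastid-encoded enzyme. The products of the rps and rpl genes join many nuclear-encoded proteins in the plastid ribosome, which translates all plastid messages. Plastid transcripts carry no stable poly(A) tail, and the labels give the standard Affymetrix method for labelling. Whether the arrays report plastid transcripts as they report nuclear ones was not tested.

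No probe set is assigned to AOX1A alone in the platform annotation used here, which leaves many probe sets without a gene name. The probe set of AT5G15700, the locus listed here for RPOTMP, was dim in all 16 groups (group means 2.48 to 4.28 log2 intensity), so the labels could not be checked firmly against either targeted gene. Of the leaf mesophyll markers 3 of 9 were measured, and their summed level lay between 14.8 and 15.5 log2 intensity on all arrays. Within this list LHCB4.2, an antenna protein of photosystem II, fell under stress by 3.00 ± 0.14 on the log2 scale in aox1a, by 3.09 ± 0.36 in rpoTmp and by 0.41 ± 0.13 in the double mutant (SE; limma adjusted p = 5.72e-06, 0.000131 and 0.0441). RCA, the activase of Rubisco, rose under stress in aox1a by 0.12 ± 0.04 (adjusted p = 0.0305), and gave 0.12 ± 0.07 in rpoTmp and -0.05 ± 0.05 in the double mutant. It fell in wild type of the double set by 0.18 ± 0.05 (adjusted p = 0.0156). PRK, phosphoribulokinase of the Calvin cycle, rose under stress in the double mutant by 0.41 ± 0.12 (adjusted p = 0.0392), and was not called in aox1a (-0.00 ± 0.09) or rpoTmp (0.01 ± 0.10). The part of these markers in the members' changes in the same comparisons was not tested. The lists of floral, dividing-cell and phloem markers had no member with a single-gene probe set in that annotation. The guard-cell list had 1 of 2. In a bulk leaf sample, fewer plastids or cells and less RNA per plastid cannot be told apart.

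Most members were bright. Mean levels over all arrays ran from 7.40 (rps16) to 13.54 log2 intensity (rps4) for 24 of them, against a median of 4.78 over all 22746 probe sets. The exceptions were rpoB, at 2.49 to 4.96 on the 40 arrays, and rps14, at 3.05 to 6.39, both dim, with means of 3.40 and 4.07 below that median. The filter on dim signals used as an alternative keeps 24 or 25 members, without rpoB and, in the rpoTmp and double sets, without rps14. Levels of some members differed between sets. accD read 7.54 to 8.73 in the double set against 9.67 to 11.65 in the others, and ycf4 read 6.77 to 8.28 against 9.59 to 12.08. For cemA the ranges were 10.03 to 10.85 and 11.18 to 13.29. rpoA tended higher in the double set, at 12.96 to 14.16 against 10.36 to 12.97. Set, labelled age and array batch cannot be told apart here, so mutants were compared only with wild type from the same set. Members tended to lie high or low together on an array. Replicate 2 of untreated wild type in the aox1a set was the lowest of its 3 arrays for 23 of 26 members, replicate 2 of untreated wild type in the rpoTmp set for 21, and replicate 2 of aox1a line 1 under MLD was the lower of 2 for 25.

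**Figure D1:**
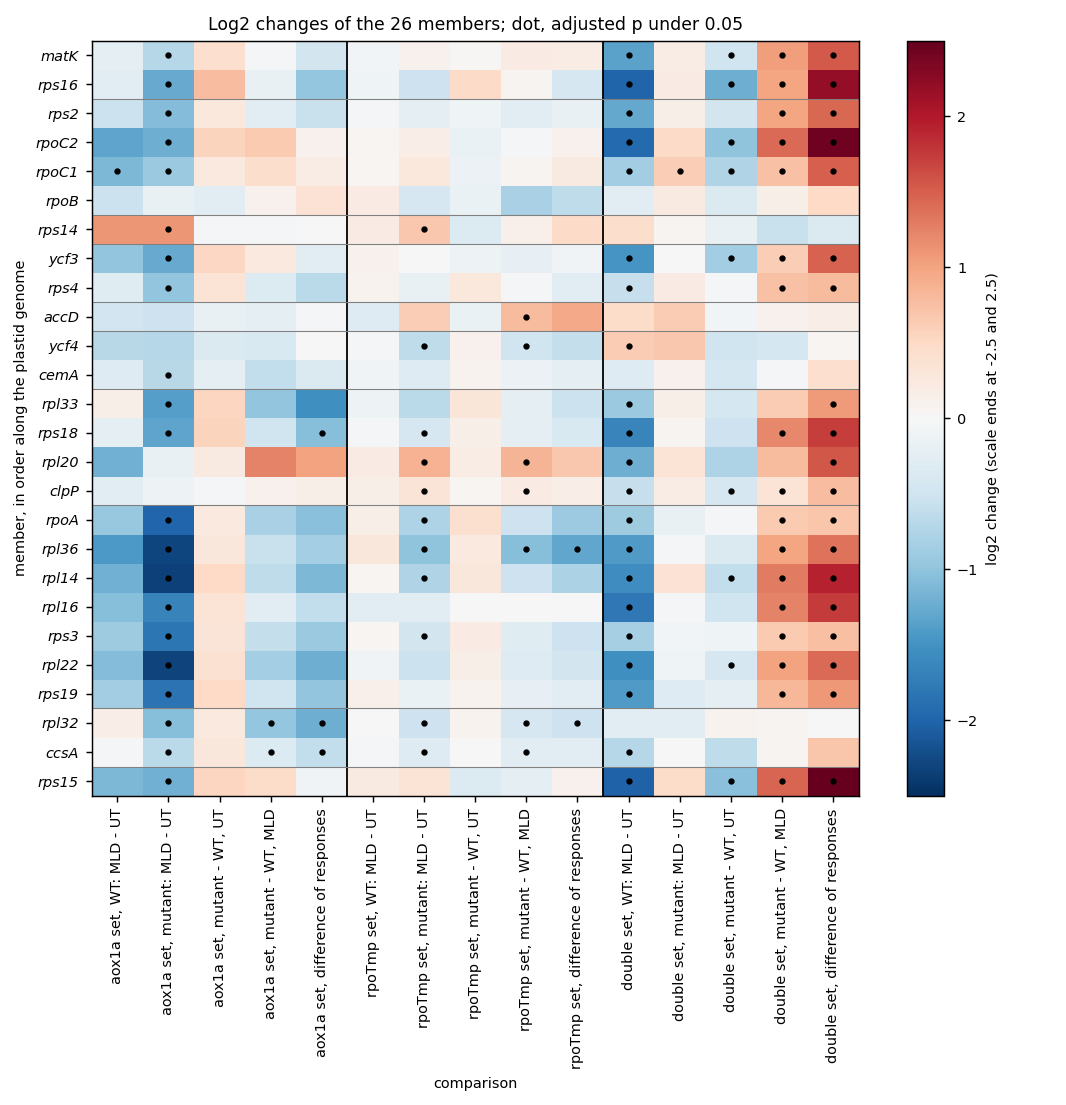
Log2 changes of the 26 members (vertical axis, in order along the plastid genome) in 15 comparisons within the 3 sets (horizontal axis; UT, untreated; MLD, moderate light and drought). Red is higher and blue lower in the group named on the left of the minus sign, grey lines separate runs of neighbouring members, and dots mark a limma adjusted p under 0.05. In the double set, members fell in wild type under MLD (blue column) while 1 was called in the mutant (pale column), which lay above wild type under MLD (red column).

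A member was called where limma gave a Benjamini-Hochberg adjusted p under 0.05 over all 22746 probe sets, and each count over the 26 members is set beside the share of all probe sets called in the same comparison. In the aox1a set, stress changed 21 of 26 members in the mutant, 20 lower and 1 higher (52.0% of all probe sets, 24.8% higher and 27.2% lower). In its wild type 1 was lower (3.35%, 2.08% higher and 1.27% lower), while 16 members had an unadjusted p under 0.05. Between aox1a and wild type, no member was called in untreated plants (6.85%, 3.28% higher and 3.57% lower), 4 had an unadjusted p under 0.05, and 2 were lower under MLD (12.4%, 6.26% higher and 6.14% lower). The response of aox1a differed from that of wild type for 3 members, all lower (22.4%, 9.89% lower). These are 11.5% of members, near the share of all probe sets called lower. The wild-type count was unstable: with each array left out in turn it ranged from 0 to 13. Without untreated replicate 2, 13 members were called lower. The fit of all arrays together, which keeps that replicate, also called 13. It takes the spread from all sets, so it cannot show how far the count depends on that array.

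In the rpoTmp set, no member was called in stressed against untreated wild type (3.61%, 1.62% higher and 1.99% lower; 1 at an unadjusted p under 0.05) or in untreated mutant against wild type (1.55%, 0.901% higher and 0.651% lower; 0 at an unadjusted p under 0.05). Under MLD 7 of 26 differed between rpoTmp and wild type, 3 higher and 4 lower (30.0%, 15.7% higher and 14.3% lower), which is near the share of all probe sets. Stress changed 11 members in the mutant, 3 higher and 8 lower (34.7%, 18.0% higher and 16.7% lower). The responses of the mutant and wild type differed for 2, both lower (14.9%, 6.91% higher and 8.03% lower). These are 7.69% of members, near the share of all probe sets called lower. The log2 ratio of the 3′ to the 5′ GAPDH probe set, a measure of RNA integrity, lay higher on the stressed mutant arrays (3.45 to 3.89) than on the untreated ones (3.03 to 3.22). In this wild type the ranges overlapped, at 3.01 to 3.38 untreated and 3.21 to 3.82 under MLD. The other GAPDH pair also did not overlap in the mutant, at -0.47 to 0.11 untreated and 0.15 to 0.41 under MLD. The part of RNA integrity in these counts was not tested.

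In the double set, stress lowered 20 of 26 members in wild type and raised 1 (42.5%, 18.3% higher and 24.2% lower). Only 1 member rose in the double mutant and none fell (22.0%, 10.2% higher). Untreated, 9 members were lower in the double mutant than in wild type and none was higher (19.7%, 9.61% lower). Under MLD, 17 were higher and none was lower (35.9%, 18.8% higher). The response of the double mutant was higher than that of wild type for 19 members and lower for none (32.6%, 16.8% higher). These 5 comparisons share arrays and are not independent of each other. Labelled age and 1 of the GAPDH ratios used as measures of RNA integrity also moved with these groups. The first GAPDH ratio was 3.60 ± 0.10 in untreated and 4.02 ± 0.12 in stressed wild type (SD, n = 3 each). It was 3.21 ± 0.07 in the untreated and 3.33 ± 0.26 in the stressed double mutant. On the other GAPDH pair, the range in stressed wild type (0.395 to 0.647) overlapped that in the stressed double mutant (0.298 to 0.605). It also overlapped untreated wild type (0.335 to 0.423), and the untreated double mutant (0.386 to 0.418) lay within that untreated range. Labelled age differs between treatments in 1 of the label sources. In the protocol the double mutant is 6 to 7 weeks old and its wild type 4 weeks. The part of RNA integrity and age in these counts was not tested.

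In the double set, stress lowered 3 of the 4 polymerase subunit genes in wild type, and the same count, 3, was higher in the double mutant under MLD. rpoC2, which encodes the β″ subunit, read 8.33, 8.33 and 8.82 log2 intensity in untreated wild type and 6.22, 7.16 and 6.25 under MLD. The untreated double mutant read 7.54, 7.87 and 7.07, and the stressed one 8.02, 7.92 and 7.97. The stressed wild-type arrays lay below untreated wild type and below the stressed double mutant, and their highest overlapped the untreated double mutant. The wild-type fall was -1.95 ± 0.28 (log2 change ± SE, adjusted p = 0.000274), and the untreated double mutant differed from wild type by -1.00 ± 0.28 (adjusted p = 0.0310). The latter call was lost in 5 of the fits with 1 array left out. Under MLD the double mutant was higher by 1.43 ± 0.28 (adjusted p = 0.00255), a 2.69-fold difference. Its own stress change, 0.48 ± 0.28, did not pass the test (95% interval -0.14 to 1.10), and the responses differed by 2.43 ± 0.39 (adjusted p = 0.00106).

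rpoC1, which encodes the β′ subunit, read 9.84, 10.22 and 10.10 log2 intensity in untreated wild type of the double set and 9.08, 9.58 and 8.90 under MLD. In the double mutant it read 9.07, 9.30 and 9.51 untreated and 10.07, 9.92 and 9.77 under MLD. Treatments did not overlap within either genotype, and they moved in opposite directions. Wild type fell by 0.87 ± 0.18 on the log2 scale (adjusted p = 0.00351), while the double mutant rose by 0.62 ± 0.18 (adjusted p = 0.0380), the only member called in that comparison. The rise was no longer called in most fits with 1 array left out. The responses differed by 1.49 ± 0.26 (adjusted p = 0.00172).

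rpoA encodes the α subunit and lies at the end of a cluster of ribosomal protein genes. In wild type of the double set it read 14.13, 14.07 and 14.05 log2 intensity untreated and 13.37, 12.96 and 13.27 under MLD. In the double mutant it read 14.16, 14.15 and 13.86 untreated and 13.77, 13.81 and 14.01 under MLD. The stressed wild-type arrays lay below all others of the set, and the groups of the double mutant overlapped. Stress lowered rpoA in wild type by 0.88 ± 0.12 (adjusted p = 0.000186), and under MLD the double mutant was higher by 0.66 ± 0.12 (adjusted p = 0.00156). Between untreated genotypes rpoA differed by -0.03 ± 0.12 (adjusted p = 0.925; 95% interval -0.29 to 0.24), where rpoC1 was lower by 0.76 ± 0.18 (adjusted p = 0.0175). This contrast between genes was not tested.

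In wild type of the aox1a set, rpoA read 12.97, 11.90 and 12.24 log2 intensity untreated and 11.71, 10.96 and 11.62 under MLD. The mutant lines read 12.71, 12.74, 12.49 and 12.54 untreated and 10.97, 10.53, 10.36 and 10.66 under MLD. All stressed mutant arrays lay below all untreated ones, and the change was -1.99 ± 0.24 (adjusted p = 0.000244). In wild type the change was -0.94 ± 0.28 (adjusted p = 0.113), and the difference of the responses, -1.05 ± 0.37, had an adjusted p of 0.0740. Under stress in aox1a, rpoC2 fell by 1.22 ± 0.29 (adjusted p = 0.00615) and rpoC1 by 0.93 ± 0.22 (adjusted p = 0.00632). The call for rpoC2 was lost with line 1 alone and that for rpoC1 with line 2 alone.

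rpoC1 was the member called in wild type of the aox1a set. It read 11.34, 10.59 and 11.07 log2 intensity untreated and 9.88, 9.91 and 9.86 under MLD, without overlap. Its change of -1.12 ± 0.25 had an adjusted p of 0.0496, and quantile normalization and most fits with 1 array left out removed the call. The neighbouring rpoC2 gave -1.32 ± 0.33 there (adjusted p = 0.0670).

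In the rpoTmp set the rpoC genes were not called. Log2 differences over the 5 comparisons lay between -0.16 and 0.17 for rpoC2 and between -0.14 and 0.26 for rpoC1. The untreated difference between rpoTmp and wild type had a 95% interval of -0.69 to 0.36 for rpoC2 and of -0.47 to 0.20 for rpoC1. rpoA fell under stress in rpoTmp by 0.77 ± 0.18 (adjusted p = 0.00757), from 12.86, 12.97, 12.93 and 12.91 to 12.20, 12.90, 11.40 and 12.09 log2 intensity. The 12.90, of line 1, overlapped the untreated range, and the call was lost with line 1 alone. The dim rpoB was not called in any comparison within a set.

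**Figure D2:**
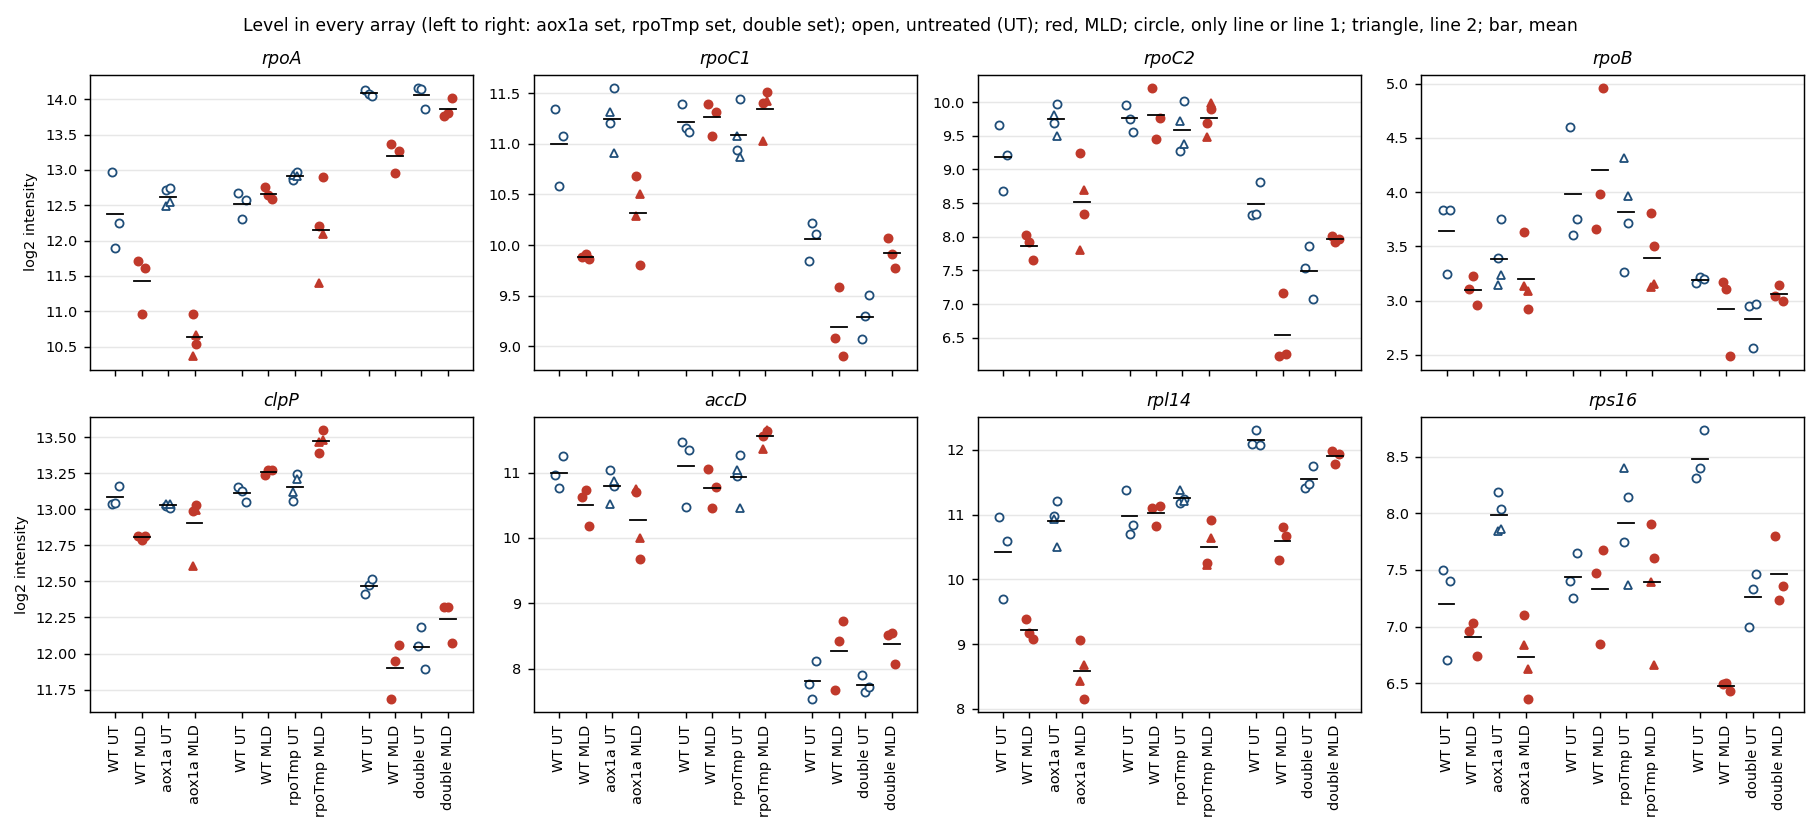
Log2 intensity of the rpo genes, accD, clpP, rpl14 and rps16 on all 40 arrays. Vertical axes each have their own scale, and groups lie along the horizontal axis, 3 sets from left to right. Open symbols are untreated and red ones MLD, circles the only line or line 1, triangles line 2, and bars group means. For rpoC2 and rps16 the 3 stressed wild-type arrays of the double set lie below the 3 stressed double-mutant arrays, and accD in the double set lies below all arrays of the other sets.

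accD, read by nuclear-encoded polymerases, and clpP, shared with the plastid-encoded enzyme, are grouped here with the rpo genes. accD encodes a subunit of plastid acetyl-CoA carboxylase, which starts fatty acid synthesis, and clpP the proteolytic subunit of the Clp protease. Under MLD, accD read 11.05, 10.46 and 10.79 log2 intensity in wild type of the rpoTmp set and 11.57, 11.64, 11.37 and 11.65 in rpoTmp. All 4 mutant arrays lay above wild type, by 0.79 ± 0.25 (adjusted p = 0.0406). The call was lost with either line alone, with the replicate number as a block and in 8 of the fits with 1 array left out. This was its only call in 19 comparisons. Untreated, accD in rpoTmp differed from wild type by -0.16 ± 0.25 (95% interval -0.73 to 0.40). Within the double set it differed from wild type by -0.06 ± 0.26 untreated and by 0.10 ± 0.26 under MLD. The stress values of accD were 0.46 ± 0.26 in wild type and 0.63 ± 0.26 in the mutant of the double set, -0.33 ± 0.27 and 0.62 ± 0.23 in the rpoTmp set, and -0.48 ± 0.30 and -0.52 ± 0.26 in the aox1a set. None of these 6 was called, and the lowest adjusted p, 0.0670, was that of rpoTmp. In aox1a it differed from wild type by -0.19 ± 0.28 untreated and -0.23 ± 0.28 under MLD. The responses differed by -0.04 ± 0.40, 0.95 ± 0.36 and 0.16 ± 0.37 in the aox1a, rpoTmp and double sets, without a call.

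Changes of clpP were small, with narrow error. Under MLD it read 13.24, 13.28 and 13.27 log2 intensity in wild type of the rpoTmp set and 13.40, 13.55, 13.47 and 13.48 in rpoTmp. Every mutant array lay above wild type, and the difference was 0.21 ± 0.06 (adjusted p = 0.0233). The call was lost with either line alone. In that mutant clpP rose under stress by 0.32 ± 0.06 (adjusted p = 0.00157), while wild type gave 0.15 ± 0.06 (adjusted p = 0.268), and the difference of the responses, 0.17 ± 0.08, was not called (adjusted p = 0.259).

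In wild type of the double set, clpP read 12.41, 12.48 and 12.52 log2 intensity untreated and 11.69, 11.95 and 12.06 under MLD. The double mutant read 12.05, 12.18 and 11.89 untreated and 12.32, 12.32 and 12.07 under MLD. Stressed wild type lay below untreated wild type, and the lowest stressed mutant array, at 12.07, was just above the highest stressed wild-type array, at 12.06. clpP fell in wild type by 0.57 ± 0.11 (adjusted p = 0.00204). The double mutant was lower than wild type untreated by 0.42 ± 0.11 (adjusted p = 0.0248) and higher under MLD by 0.34 ± 0.11 (adjusted p = 0.0371). Quantile normalization and several fits with 1 array left out removed both calls between genotypes. In the aox1a set clpP was not called in any comparison.

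The 15 ribosomal protein genes are grouped next. Stress lowered 13 of 15 in wild type of the double set (median of the 15, -1.41, against -0.04 over all probe sets). It lowered 13 and raised 1 in aox1a (median -1.32), and in rpoTmp lowered 5 and raised 2 (median -0.42). Limma called none of 15 in wild type of the aox1a set, with 12 below 0, a median of -0.86 and 10 at an unadjusted p under 0.05. In the double mutant none of 15 was called by limma (median 0.08), with 4 at an unadjusted p under 0.05. The rpo genes, accD and clpP form a group of 6, in which rpoA, a neighbour of ribosomal protein genes, is placed by its name. Of this group, 4 were lower in wild type of the double set and 3 lower in aox1a. In rpoTmp 1 was lower and 1 higher, and in the double mutant 1 was higher. Their median changes were -0.72, -0.72, 0.21 and 0.36 on the log2 scale. Of the 6, 1 was lower in wild type of the aox1a set, with a median of -0.74. Set beside the shares of all probe sets called (42.5%, 52.0%, 34.7% and 22.0%), the 3 of 6 in aox1a and the 2 of 6 in rpoTmp are near the background, and 7 of 15 ribosomal genes in rpoTmp is 46.7% against 34.7%. The difference between these groups of genes was not tested.

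**Figure D3:**
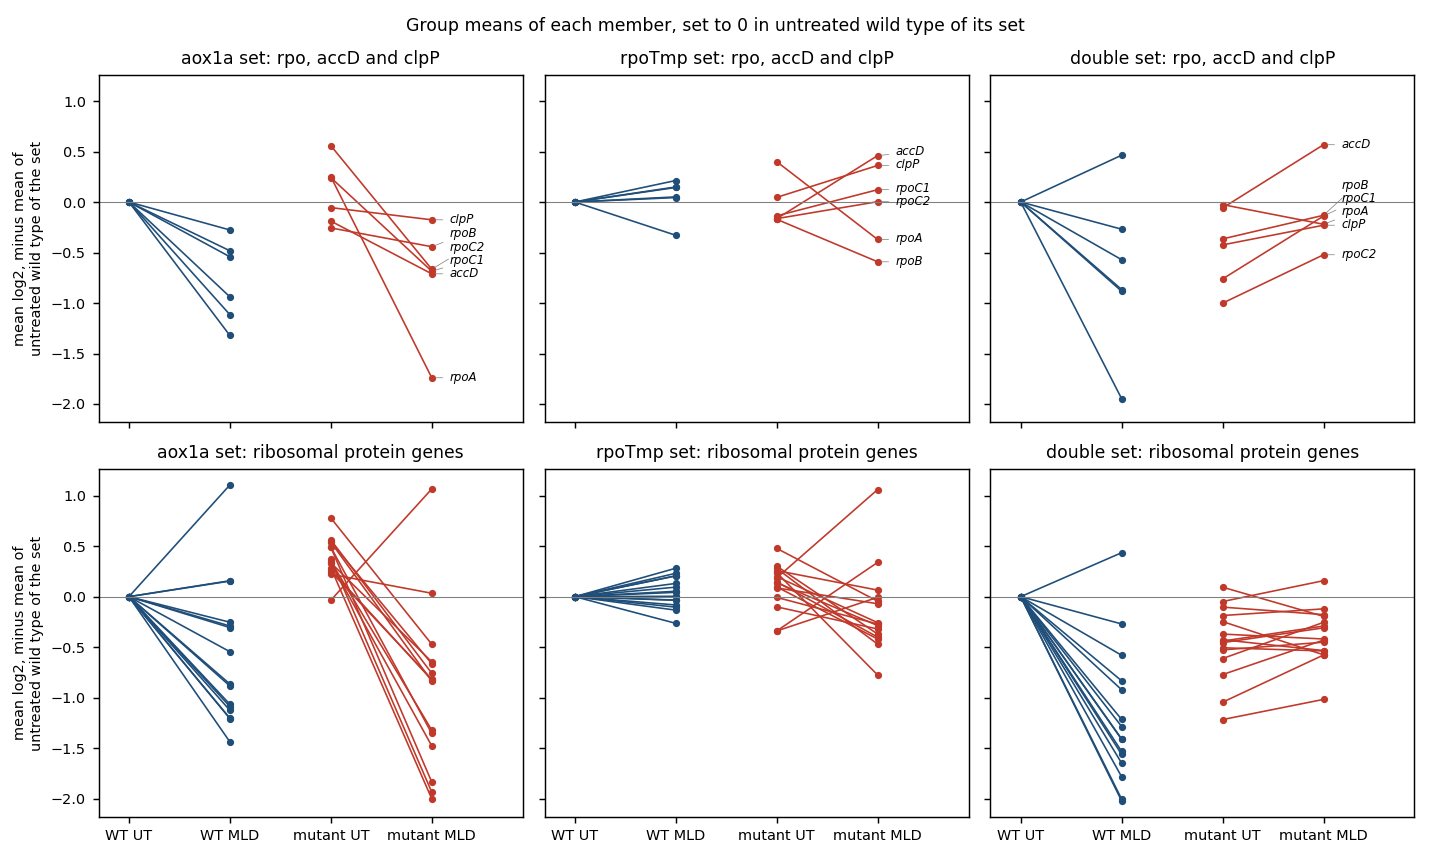
Mean log2 intensity of each member in 4 groups per set (horizontal axis), after subtraction of its mean in untreated wild type (vertical axis, log2 units). Blue lines join untreated and stressed wild type, and red lines untreated and stressed mutant. Panels hold the rpo genes with accD and clpP, or the 15 ribosomal protein genes. Blue lines of the double set fall as far as -2.02 (rps15), and in the rpoTmp set blue lines stay between -0.33 and 0.28.

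Of the small-subunit genes, rps15 and rps16 had the largest falls in wild type of the double set. rps15 read 8.47, 8.45 and 8.62 log2 intensity untreated and 6.38, 6.88 and 6.21 under MLD, a 4.06-fold fall (-2.02 ± 0.17, adjusted p = 1.00e-05). The double mutant gave 7.42, 7.44 and 7.55 untreated and 8.16, 7.98 and 7.67 under MLD. Untreated, all mutant arrays lay below wild type, and under MLD all lay above it. The responses differed by 2.49 ± 0.24 (adjusted p = 7.27e-05).

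rps16 read 8.31, 8.40 and 8.73 log2 intensity in untreated wild type and 6.49, 6.51 and 6.43 under MLD. The double mutant read 7.00, 7.33 and 7.46 untreated and 7.80, 7.23 and 7.36 under MLD. Its arrays sat between the wild-type levels in both treatments, and its own groups overlapped. The fall in wild type was -2.01 ± 0.17 (adjusted p = 1.07e-05), and the difference between untreated genotypes was -1.22 ± 0.17 (adjusted p = 0.00111). Of the other small-subunit genes, named here after their values were seen, rps2 fell in wild type by 1.29 ± 0.16, rps18 by 1.65 ± 0.25, rps19 by 1.41 ± 0.12, rps3 by 0.83 ± 0.10 and rps4 by 0.58 ± 0.07. The dim rps14, at 0.44 ± 0.21, was not called (adjusted p = 0.132).

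Among large-subunit genes, rpl14 read 12.09, 12.30 and 12.07 log2 intensity in untreated wild type of the double set and 10.31, 10.81 and 10.67 under MLD. The double mutant read 11.41, 11.47 and 11.75 untreated and 11.98, 11.79 and 11.94 under MLD. The 4 groups did not overlap, with stressed wild type lowest and untreated wild type highest. Wild type fell by 1.56 ± 0.14 (adjusted p = 1.36e-05), and the stressed double mutant exceeded it by 1.31 ± 0.14 (adjusted p = 7.25e-05).

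rpl36 read 10.87, 10.96 and 11.03 log2 intensity in untreated wild type of the double set and 9.22, 10.01 and 9.39 under MLD. In double-mutant leaves it read 10.62, 10.56 and 10.56 untreated and 10.68, 10.23 and 10.69 under MLD, and these groups overlapped. Wild type fell by 1.41 ± 0.19 (adjusted p = 0.000205). rpl16 fell there by 1.78 ± 0.19, rpl22 by 1.53 ± 0.10, rpl20 by 1.22 ± 0.30 and rpl33 by 0.92 ± 0.23. rpl32 was the exception, with -0.27 ± 0.20 (adjusted p = 0.335).

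In aox1a under stress, rpl14, rpl22 and rpl36 had the largest falls among the members. rpl14 went from 10.98, 11.21, 10.94 and 10.51 log2 intensity to 9.06, 8.16, 8.43 and 8.68, a change of -2.33 ± 0.28 (adjusted p = 0.000237). rpl22 fell by 2.31 ± 0.33 and rpl36 by 2.29 ± 0.32. For these 3 genes no stressed mutant array reached an untreated one. Wild type of that set gave -1.21 ± 0.33 for rpl14, -1.09 ± 0.38 for rpl22 and -1.44 ± 0.37 for rpl36, with adjusted p-values of 0.0866, 0.171 and 0.0760. The differences between these responses, -1.12 ± 0.43, -1.22 ± 0.51 and -0.85 ± 0.50, were not called, at adjusted p-values of 0.0959, 0.116 and 0.251. The dim rps14 rose in aox1a by 1.10 ± 0.37 (adjusted p = 0.0318) with overlapping arrays, and wild type gave 1.11 ± 0.42 (adjusted p = 0.209).

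rpl32, its neighbour ccsA and rps18 responded differently in aox1a and wild type. rpl32 read 12.89, 12.48 and 12.60 log2 intensity in untreated wild type and 13.00, 12.69 and 12.75 under MLD. The mutant read 12.97, 12.84, 12.72 and 13.07 untreated and 11.91, 11.74, 12.10 and 11.59 under MLD. The 4 stressed mutant arrays lay below all other arrays of the set. The responses differed by -1.22 ± 0.22 for rpl32 (adjusted p = 0.00813), by -0.62 ± 0.11 for ccsA (adjusted p = 0.00878) and by -1.07 ± 0.31 for rps18 (adjusted p = 0.0402). The call for rps18 was lost with either line alone. ccsA encodes a protein of plastid cytochrome c maturation.

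In rpoTmp, rpl36 and rpl32 were the members whose stress responses differed from wild type. rpl36 read 10.81, 10.71 and 10.53 log2 intensity in untreated and 11.07, 10.80 and 11.03 in stressed wild type. The mutant read 10.65, 10.90, 11.17 and 10.95 untreated and 9.68, 10.33, 9.42 and 10.19 under MLD. The stressed mutant arrays lay below all others of the set, and the responses differed by -1.30 ± 0.29 (adjusted p = 0.0154). For rpl32 the difference was -0.52 ± 0.12 (adjusted p = 0.0176). Neither passed the test with line 1 alone.

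rpl20 was higher in stressed rpoTmp. Stressed wild type read 10.57, 9.95 and 10.52 log2 intensity, and the stressed mutant read 11.34, 11.50, 10.67 and 11.32. All mutant arrays exceeded wild type, by 0.86 ± 0.18 (adjusted p = 0.00593). The call was lost with line 2 alone. Its rise under stress in the mutant was 0.87 ± 0.17 (adjusted p = 0.00273).

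The remaining members have other roles. matK encodes an intron maturase, ycf3 and ycf4 encode assembly factors of photosystem I, and cemA encodes a protein of the inner envelope. matK read 12.73, 12.69 and 12.76 log2 intensity in untreated wild type of the double set and 11.10, 11.67 and 11.37 under MLD. The double mutant gave 12.20, 12.27 and 12.21 untreated and 12.41, 12.41 and 12.44 under MLD. The stressed wild-type arrays were lowest, and the mutant arrays lay between the wild-type groups. The fall in wild type was -1.35 ± 0.11 (adjusted p = 9.40e-06). ycf3 fell there by 1.47 ± 0.14 and ccsA by 0.71 ± 0.20.

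ycf4 was the only member that rose in stressed wild type of the double set. It went from 7.16, 7.33 and 7.49 to 7.82, 8.28 and 7.76 log2 intensity, by 0.63 ± 0.22 (adjusted p = 0.0424), and quantile normalization and most fits with 1 array left out removed the call. In rpoTmp it fell under stress by 0.63 ± 0.15 (adjusted p = 0.00875), which neither line alone kept. cemA was called in 1 of the 19 comparisons, a change of -0.69 ± 0.19 under stress in aox1a (adjusted p = 0.0125).

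Members that adjoin each other on the plastid genome may share a transcript, so their values are not independent. The runs below were formed from gene order alone, without regard to strand, so members of a run need not share a transcript. The longest run holds rpoA, rpl36, rpl14, rpl16, rps3, rpl22 and rps19. All 7 fell under stress in aox1a, with log2 changes of -2.33 to -1.67, and in wild type of the double set, with -1.78 to -0.83. Under MLD all 7 were higher in the double mutant than in wild type, by 0.66 to 1.31. In rpoTmp 4 of the 7 fell under stress. Of all probe sets 27.2% fell under stress in aox1a, 24.2% in wild type of the double set and 16.7% in rpoTmp, and 18.8% were higher in the double mutant under MLD. In the run rpl33, rps18, rpl20 and clpP, members differed in sign: under stress in rpoTmp, rpl20 and clpP rose, rps18 fell by 0.42 ± 0.14, and rpl33 gave -0.67 ± 0.24 without a call.

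**Figure D4:**
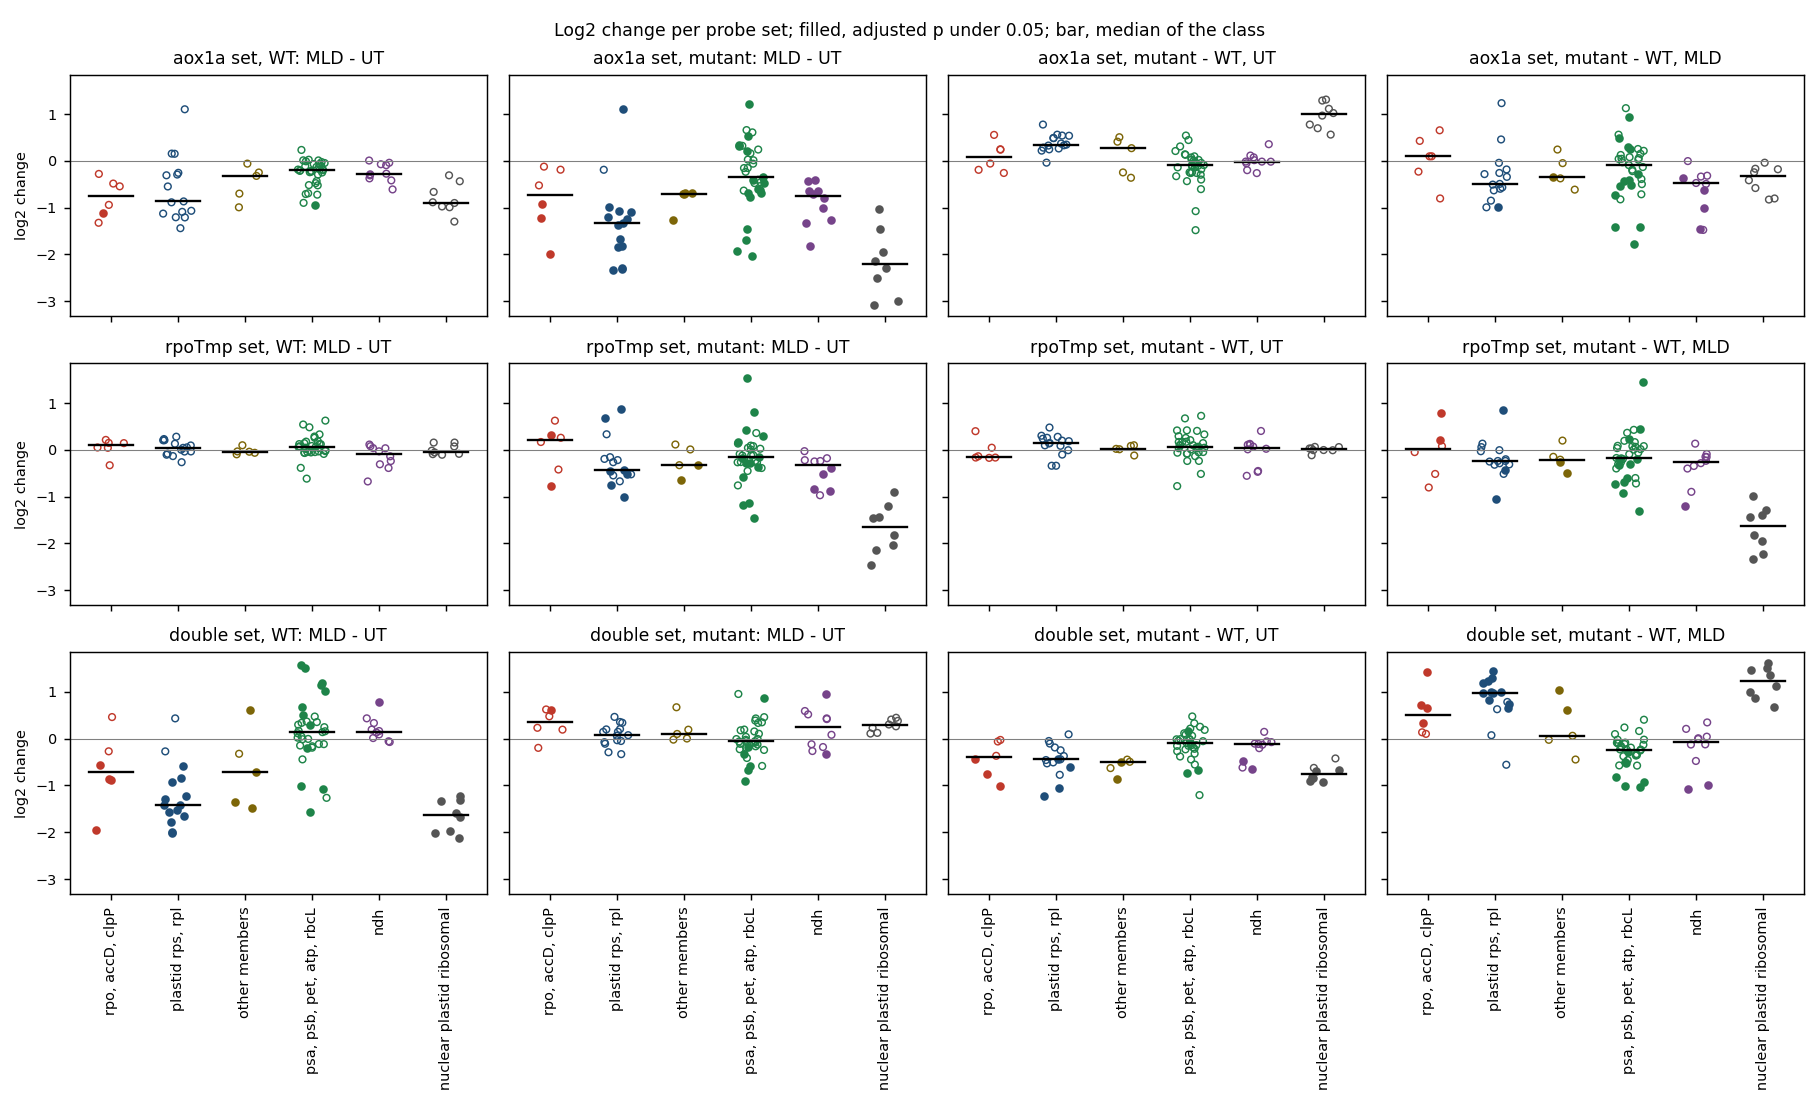
Log2 change of each probe set (vertical axis) by class (horizontal axis) in 12 comparisons, for the members in 3 classes, 33 plastid photosynthesis probe sets, 10 plastid ndh probe sets and 8 nuclear genes listed as plastid ribosomal proteins. Filled points have a limma adjusted p under 0.05 and bars are class medians. In wild type of the double set the ribosomal members have a median of -1.41 and the photosynthesis genes of 0.14, and in aox1a under stress all 10 ndh probe sets fell.

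Plastid-encoded photosynthesis and ndh genes were counted beside the members. In wild type of the double set under stress, 8 of 33 photosynthesis probe sets rose and 4 fell (median 0.14), and 1 of 10 ndh probe sets rose. psbA, which encodes a core protein of photosystem II, rose by 1.58 ± 0.28, while psbN fell by 1.57 ± 0.17. Under MLD the double mutant was lower than wild type for 7 of 33 photosynthesis probe sets and higher for none (median -0.23). In aox1a under stress, 12 of 33 fell, 5 rose and all 10 ndh probe sets fell. For the photosynthesis probe sets 51.5% were thus called in aox1a, near the 52.0% of all probe sets, 36.4% in wild type of the double set (42.5% of all) and 21.2% between the double mutant and wild type under MLD (35.9% of all). Differences between these classes were not tested.

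Nuclear genes for plastid ribosomal proteins were taken from a list of 36 loci written from general knowledge, of which 8 had a single-gene probe set. All 8 fell under stress in wild type of the double set, with log2 changes of -2.11 to -1.23. Under MLD all 8 were higher in the double mutant than in wild type, by 0.69 to 1.61, and untreated 6 were lower. AT1G29070 of this list fell in wild type by 2.11 ± 0.22 and was higher in the stressed double mutant by 1.61 ± 0.22. In the aox1a mutant all 8 fell under stress (median -2.21). In rpoTmp all 8 were lower than in wild type under MLD, with differences of -2.34 to -1.00, a comparison in which 2 of the 15 plastid-encoded ribosomal genes were lower and 1 was higher. Of all probe sets 24.2% fell in stressed wild type of the double set and 27.2% in aox1a, 18.8% were higher and 9.61% lower in the double mutant under MLD and untreated, and 14.3% were lower in rpoTmp under MLD. Under stress in the double mutant, limma called 0 of the 8, with 1 at an unadjusted p under 0.05. No sigma factor (0 of 6) and none of 13 proteins associated with the plastid polymerase had a single-gene probe set in the annotation used here. That annotation names no gene for 8730 of the 22746 probe sets, so the array may still read these genes.

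The effect of the double mutation was set against each single mutation, with each mutant first compared with its own wild type, in a fit of all 40 arrays. Under MLD the double-mutant effect was higher than that of aox1a for 14 of 26 members and lower for none (33.0% of all probe sets, 16.7% higher). Against rpoTmp it was higher for 15 and lower for none (41.9%, 20.5% higher). rpoA stood higher by 1.46 ± 0.30 against aox1a (adjusted p = 0.000422) and by 1.18 ± 0.30 against rpoTmp (adjusted p = 0.00220). For rpoC2 the differences were 0.77 ± 0.41 (adjusted p = 0.165) and 1.47 ± 0.41 (adjusted p = 0.00428). The ribosomal genes accounted for 12 of the 14 and 11 of the 15. Both comparisons use the same double-mutant and wild-type arrays, and sets differ in labelled age. The wild types of the 3 sets also differed in their stress response. Stress changed 21 of 26 members in wild type of the double set (median -1.07, 42.5% of all probe sets). It changed 1 in that of the aox1a set (-0.62, 3.35%) and 0 in that of the rpoTmp set (0.04, 3.61%). The part of these wild-type responses in the differences under MLD was not tested.

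Untreated, the double-mutant effect was lower than that of aox1a for 12 members (23.8%, 11.6% lower) and than that of rpoTmp for 4 (9.47%, 4.56% lower), with none higher. rps16 gave -2.00 ± 0.35 against aox1a (adjusted p = 0.000159) and -1.70 ± 0.35 against rpoTmp (adjusted p = 0.00222). clpP gave -0.37 ± 0.12 (adjusted p = 0.0293) and -0.47 ± 0.12 (adjusted p = 0.0139). accD gave 0.13 ± 0.39 and 0.11 ± 0.39 and was not called. The count against aox1a fell to 5 without untreated wild-type replicate 2 of the aox1a set.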

How the data were processed

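The deposited table holds 1 intensity per probe set and array on a linear scale, as normalized by the authors. The submitters' processing notes name Affymetrix Expression Console, MAS5, Partek 6.5 and GCRMA without role or order, so which of them made the values is unknown here. Array medians of 23.3 to 26.9 show that the arrays were already on a common scale. The deposited intensities were converted to log2 with no pseudocount (lowest value 2.66). Of 22810 probe sets, 64 controls were left out and 22746 were tested, of which 13513 carry 1 gene name, 503 several and 8730 none in the platform annotation used. The number of arrays limits the precision.

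Each set was fitted by group with limma 3.58.1 in R 4.3.3 (lmFit, eBayes, residual df 8), with the mean of both lines for a single mutant. The comparison of double with single mutants used 1 fit of all 40 arrays (residual df 24). P-values were Benjamini-Hochberg adjusted over all 22746 probe sets, with a threshold of 0.05, and intervals are 95% limma intervals without adjustment. The fit was also run on simulated data with independent noise for each probe set. Members here tended to move together on an array, so that run does not bear on their joint counts. The alternatives were log2(value + 16), quantile normalization, a filter on dim probe sets (mean log2 under 5 in every group), a trended robust prior, the replicate number as a block, 1 fit of all arrays, each line alone, and each array left out. No arrays held identical values.

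Members and lists were chosen with earlier results of these data known. rpo genes, accD and clpP were described whether called or not. Of the others, up to 3 called rises and 3 called falls per comparison with a mean log2 of at least 5 were named, and array values were given, for the sets described, for 4 of the 5 members tied as most often called (matK, rpl14, rpl36 and rps16, without rps18). Members and values given beyond this rule, such as the arrays of rps15, rpl32, rpl20 and ycf4, were chosen after their values were seen.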

Additional observations from a re-analysis of the deposited data

Results flagged for a closer look

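Some members responded differently to stress in mutant and wild type, or differed between the double and a single mutant, by a limma test of the difference itself (log2 scale, adjusted p under 0.05). The response of aox1a minus that of wild type was -1.22 for rpl32, -1.07 for rps18 and -0.62 for ccsA. The response of rpoTmp minus that of wild type was -1.30 for rpl36 and -0.52 for rpl32. The response of the double mutant minus that of wild type was 2.43 for rpoC2, 1.49 for rpoC1, 0.77 for clpP, 0.69 for rpoA, 2.49 for rps15, 2.20 for rps16 and 1.92 for rpl14.

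For untreated plants, the double-mutant effect minus the aox1a effect was -1.56 for rpoC2, -1.00 for rpoC1, -0.37 for clpP, -2.00 for rps16, -1.59 for rps15 and -1.38 for ycf3. Minus the rpoTmp effect it was -0.47 for clpP, -1.70 for rps16, -0.64 for ccsA and -0.52 for matK. Under MLD, the double-mutant effect minus the aox1a effect was 1.46 for rpoA, 1.94 for rpl14, 1.85 for rpl22 and 1.70 for rps18. Minus the rpoTmp effect it was 1.47 for rpoC2, 0.94 for the dim rpoB, 1.18 for rpoA, 2.05 for rpl36, 1.82 for rpl14 and 1.68 for rps15. The comparisons between mutants share arrays, and set, labelled age and any batch cannot be told apart there. Groups of 2 or 3 arrays were too small to test for a single outlying array. Counts with each array left out are given below.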

How the results depend on the processing

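Over named members and settings, 3888 values kept their direction and side of the threshold, 181 fell short of it and 53 newly passed it. Another 63 turned their sign, and none of these was called in either setting. Member counts moved by over 1.5 times as follows, and the cause was not tested. For stress in wild type of the aox1a set (1 called) the count was 13 with all 40 arrays in 1 fit, 6 without dim probe sets, and 0 with log2(value + 16), quantile normalization or the replicate block. For untreated aox1a against wild type (0) it was 3 with all arrays, and 1 without dim probe sets or with the block. Under MLD (2) it was 7, 4 without dim probe sets, and 1 with line 2 alone. For the difference of responses in that set (3) it was 12 with all arrays, 9 without dim probe sets and 5 with the trended robust prior. In rpoTmp, the stress count (11) was 4 with line 1 alone, and the difference of responses (2) was 0 with line 1 alone and 4 after quantile normalization. In the double mutant the stress count (1) was 3 without dim probe sets and 2 with quantile normalization or the trended prior. Against aox1a untreated (12) it was 6 with line 2 alone, and against rpoTmp untreated (4) it was 1 after quantile normalization.

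With each array left out in turn, counts in the aox1a set ranged from 0 to 13 for stress in wild type, 0 to 1 untreated, 1 to 4 under MLD, 19 to 22 for stress in the mutant and 2 to 7 for the difference of responses. The 13 came without untreated wild-type replicate 2 and the 7 without untreated wild-type replicate 1. In the rpoTmp set they ranged from 0 to 0 for stress in wild type and for untreated genotypes, 3 to 7 under MLD, 8 to 14 for stress in the mutant and 2 to 5 for the difference. The 3 came without replicate 2 or 3 of stressed wild type, and the 5 without line 1 replicate 2 under MLD. In the double set they ranged from 19 to 22 for stress in wild type, 6 to 11 untreated, 16 to 20 under MLD, 0 to 4 for stress in the mutant and 18 to 20 for the difference. Between mutants they ranged from 5 to 13 and 14 to 17 against aox1a, and 2 to 5 and 13 to 16 against rpoTmp, untreated and under MLD. Where a line kept 1 array, it was assumed to vary like the other groups.

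Whether replicate numbers pair the arrays was not tested against a chance level. Same-numbered deviations had median correlations of 0.05, 0.00 and 0.01 in the aox1a, rpoTmp and double sets, with a lowest value of -0.37. In these sets 5 of 14, 8 of 14 and 7 of 12 arrays correlated best with their own number. With the replicate block, counts were 20 for stress in wild type of the double set, 16 under MLD, 19 for the difference of responses, and 5 for rpoTmp under MLD. The low signals of rpoB and rps14 limit what can be said of them.

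The sign turned as follows, always between values without a call, and the cause was not tested. With line 2 alone, clpP gave -0.0046 for aox1a under MLD, rpoC2 -0.079 and accD 0.16 for the difference of responses in that set. It gave 0.15 for rpoB in untreated rpoTmp, -0.038 for rpoC1 in rpoTmp under MLD and 0.084 for rpoB between double mutant and aox1a untreated. Line 1 alone gave -0.021 for rpoC1 in the difference of responses of the aox1a set, 0.014 for accD in untreated rpoTmp and 0.16 for rpoB under stress in rpoTmp. It gave -0.046 for rpoB between double mutant and aox1a under MLD, and 0.13 for rpoB and -0.073 for accD between double mutant and rpoTmp untreated. Quantile normalization gave 0.010 for rpoC2 in rpoTmp under MLD and -0.037 for clpP between double mutant and rpoTmp under MLD, and log2(value + 16) gave -0.0014 for rpoB between double mutant and aox1a under MLD.

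Log2 changes with 1 array left out spanned 0 in these cases. For aox1a under MLD they ran from -0.078 to 0.28 for rpoB and -0.49 to 0.031 for accD. For the difference of responses in that set they ran from -0.14 to 0.35 for rpoC2, -0.031 to 0.41 for rpoC1 and -0.30 to 0.22 for accD. Wild type of the rpoTmp set under stress gave -0.15 to 0.23 for rpoC2, -0.022 to 0.14 for rpoC1 and -0.17 to 0.52 for rpoB. Untreated rpoTmp gave -0.35 to 0.023 for rpoC2, -0.36 to 0.14 for rpoB, -0.47 to 0.017 for accD and -0.0007 to 0.093 for clpP. Under MLD rpoTmp gave -0.23 to 0.15 for rpoC2 and -0.023 to 0.18 for rpoC1. For rpoC2, stress in rpoTmp gave -0.019 to 0.35 and the difference of responses -0.070 to 0.32. The untreated double mutant gave -0.19 to 0.093 for accD and -0.076 to 0.072 for rpoA. Under MLD it gave -0.081 to 0.26 for rpoB and -0.20 to 0.33 for accD, and the difference of responses gave -0.14 to 0.39 for accD. Against aox1a untreated, the double mutant gave -0.21 to 0.086 for rpoB and -0.0029 to 0.28 for accD. Under MLD it gave -0.18 to 0.22 for rpoB, and against rpoTmp untreated -0.076 to 0.41 for accD.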
